A study of Gallus gallus with 10 samples.

Results

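Immediate early genes are switched on within minutes of a stimulus, without new protein synthesis, and their transcripts decay quickly. Best known from mammals, they answer growth factors, serum, wounding, oxygen shortage and mechanical stress through the MAP kinase pathways and serum response factor, and most encode transcription factors that act on slower, second-wave genes. In tissue taken at slaughter they are widely read as a trace of stress and handling before freezing, because a short delay is enough to induce them. The genes described here were 10 such genes chosen by name, FOS, JUN, JUND, FOSL2, EGR1, ATF3, IER2, MYC, DUSP1 and NR4A3. They were chosen with earlier results of these data known. All probe sets annotated to one of these symbols and to no other gene were taken, whatever their signal. This gave 9 probe sets of 8 genes, out of 13009 genes with such a probe set on the array, with EGR1 represented by 2 probe sets and each other gene by 1. JUND and IER2 had no probe set with that annotation and were not analysed here.

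The study set abdominal fat of a fat line against that of a lean line, both bred from Arbor Acres broilers by selection on abdominal fat and on plasma very low density lipoprotein. The samples were 10 males of 7 weeks (49 days), 5 of each line, each bird hybridised to 1 Affymetrix Chicken Genome Array. The lines shared the diet and housing, and no treatment was applied to either, so the comparison is between lines only. The 10 birds were those with the highest and the lowest share of abdominal fat within the selected lines, and were weighed after fasting. Their fat was isolated after slaughter and weighed, and the methods describe it as frozen in liquid nitrogen immediately once isolated. The time from slaughter to freezing of each bird, the order of slaughter and the animals' families were not given in the sources used here. Values are MAS5 signals (Affymetrix Microarray Suite signal intensities, with a trimmed mean of 500.1 on each array), and fold changes are log2 of the fat line minus the lean line, so that a negative value is lower in the fat line.

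Fat cell markers bore out the labelled tissue in every bird, with the fatty acid carrier FABP4 at 44732 to 57201 and the lipid droplet protein PLIN1 at 17812 to 26284. Fat line 4 stood apart from the other arrays, with a mean correlation of 0.819 with the other 9 birds against 0.865 to 0.884 for the rest and a median signal of 276.2 against 185.8 to 234.2. The study left a fat line bird out of its screen because it correlated poorly with the other fat line birds. The labels give no bird numbers. The signals it printed for that bird match fat line 2 for FABP4 (57201), THRSP (35261), LPL (25855) and HSPA2 (21373). They match fat line 4 for CD74 (38875) and lean line 4 for HSPB9 (21037). The printed CD74 signals also give another fat line bird the value of lean line 4 (36116), so the printed order of birds varied between genes. Fat line 4, not fat line 2, was the array least like the others. Which array it was is therefore not settled here. The arrays were scanned on 3 days and washed in 4 runs as inferred from the gaps between hybridization times, and the wash log of lean line 4 recorded a stop. Lean line 1 and lean line 2 formed a scan day and a wash run without any fat line bird. The RNA integrity controls varied across birds, from 0.916 to 1.499 for the ratio of the 3′ to the 5′ GAPDH probe set and from 1.55 to 3.09 for that of actin. These ratios split by scanner, of which there were 2. Fat line 5 and lean line birds 1, 2 and 4, on 1 scanner, had 1.358 to 1.499 for GAPDH and 2.28 to 3.09 for actin. The other birds, on the other scanner, had 0.916 to 1.287 and 1.55 to 2.05. Scanner and scan day cannot be told apart here.

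The immediate early genes were lower in the fat line in all 9 probe sets, by log2 folds of -0.22 to -1.09, but not one difference passed the test. Because the genes were chosen with earlier results of these data known, their counts beside those of the array are a description and do not test the list. Limma with Benjamini-Hochberg adjustment over 38439 probe sets called 0 of the 9, with 0 called on the whole array (0.0%). At an unadjusted p under 0.05 limma passed 2 of the 9, FOS and ATF3, against 2835 of all probe sets (7.38%), and 3.99% of all probe sets passed with the lower mean in the fat line, as these genes did. FOS and ATF3 stood near the middle of the array by mean log2 signal, at percentiles 54.2 and 55.3. Detection calls were not used here, so whether they were detected in each bird was not examined. The exact permutation test over the 252 ways of dividing the birds passed the same 2, against 2680 of all probe sets (6.97%). A lower mean in the fat line was itself common, being found in 21411 probe sets (55.7%), and in 52.5% of the 19220 probe sets with the highest mean log2 signal, which held 8 of the 9. The median log2 fold was -0.49 over the 8 genes, each by its brighter probe set, and -0.05 over all probe sets tested. The lines overlapped in all 9 probe sets, whereas 535 of all probe sets (1.39%) showed no overlap.

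**Figure D1:**
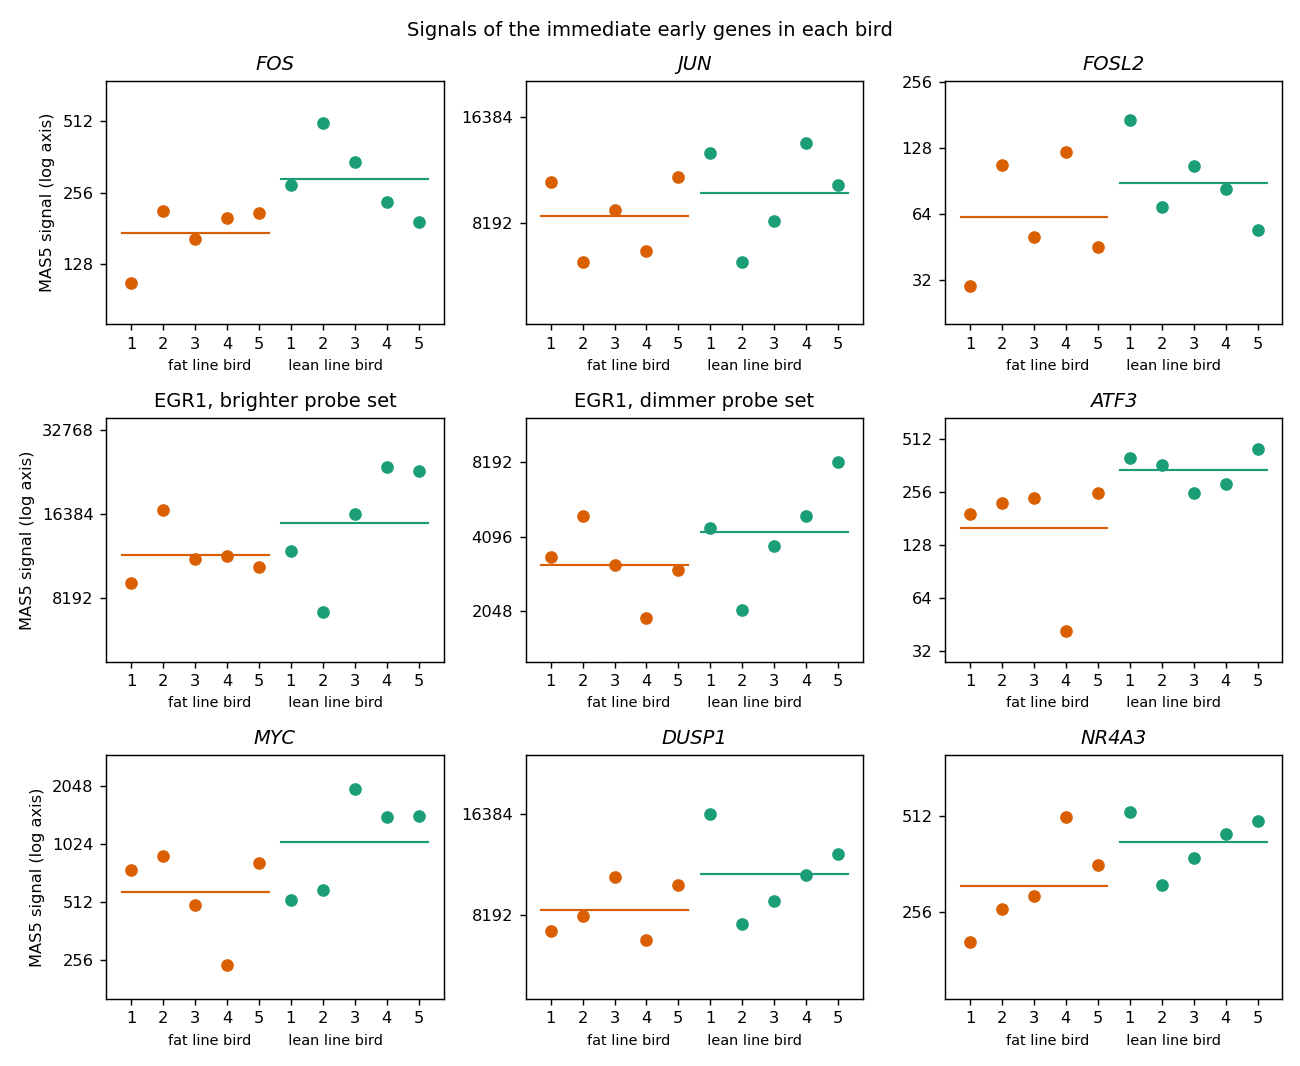
MAS5 signal of each immediate early probe set (log axis) in fat line birds 1 to 5 and lean line birds 1 to 5. Each point is 1 bird and each line the mean of the log2 signals of 5 birds. The fat line mean lies below the lean line mean in all 9 panels, and the birds of the lines overlap in each.

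FOS encodes the short-lived protein that pairs with JUN family proteins to form the transcription factor AP-1. Its signal was 106.4, 213.3, 163.3, 199.9 and 210.1 in fat line birds 1 to 5 and 276.3, 504.8, 343.8, 232.6 and 191.4 in lean line birds 1 to 5. Lean line birds 1 to 4 lay above every fat line bird, whereas lean line 5 lay within the fat line range. The means were 178.6 ± 45.0 and 309.8 ± 122.8 (SD, n = 5 each), a log2 fold of -0.76 (limma SE 0.33 and adjusted p = 0.659, exact permutation p = 0.0397, two-sided). The FOS fold narrowed to -0.40 with wash run as a block (limma adjusted p = 0.848) and to -0.50 with scan day as a block. Lean line 2, the highest bird in FOS, and lean line 1 had no weight in these fits. With lean line 2 left out and no block the FOS fold was -0.56.

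JUN, the AP-1 subunit that can bind DNA with itself or with FOS, had signals of 10721, 6336, 8888, 6822 and 11073 in the fat line and 12905, 6328, 8271, 13820 and 10511 in the lean line. The lowest bird of all was lean line 2, the same bird that was highest in FOS. The lines differed little in JUN, with 8768 ± 2171 against 10367 ± 3126 and a log2 fold of -0.22 (limma SE 0.22 and adjusted p = 0.874, exact permutation p = 0.429). Leaving out single birds moved this fold between -0.38 without lean line 2 and -0.10 without lean line 4, and it was -0.02 with both birds numbered 4 left out.

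FOSL2 encodes FRA-2, a FOS family member that in mammals appears later and lasts longer than FOS. Its probe set was the only member outside the 19220 brighter ones, at 30.2, 106.9, 50.5, 122.7 and 45.5 in the fat line and 172.4, 68.7, 106.2, 82.9 and 54.0 in the lean line. Fat line birds 2 and 4 reached lean line levels, and fat line birds 1, 3 and 5 lay below every lean line bird. The means of 71.2 ± 40.9 and 96.8 ± 46.4 differed by a log2 fold of -0.53 (limma SE 0.55 and adjusted p = 0.879, exact permutation p = 0.294). The fold was -0.27 without fat line 1 and -0.29 without lean line 1. For FOSL2 it shrank to -0.18 with wash run as a block, to -0.18 on scan day 3 alone and to -0.10 with signals under 100 set to 100. Lean line 1, the highest bird in FOSL2, and lean line 2 had no weight with the wash run block or on scan day 3 alone.

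ATF3, a leucine zipper factor of the ATF/CREB family that is induced by many kinds of cell stress, had the largest fold of the 8 genes with all birds and no block. Signals were 191.2, 221.0, 236.3, 41.7 and 253.1 in the fat line and 399.0, 364.5, 251.3, 285.0 and 448.0 in the lean line. Only fat line 5, at 253.1, and lean line 3, at 251.3, crossed over, while fat line 4 lay far below the other fat line birds. The fat line mean was 188.7 ± 85.3 and the lean line mean 349.6 ± 80.9, a log2 fold of -1.09 (2.13-fold, limma SE 0.45 and adjusted p = 0.633, exact permutation p = 0.0159). Without fat line 4 the log2 fold was -0.61 (limma SE 0.25 and adjusted p = 0.397), smaller but with a smaller error, and FOS at -0.81, FOSL2 at -0.77 and NR4A3 at -0.64 were then larger.

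EGR1 is a zinc finger factor of the early growth response family. The brighter of its probe sets read 9255, 16922, 11316, 11633 and 10601 in the fat line and 12098, 7278, 16445, 24156 and 23463 in the lean line. Lean line birds 4 and 5 were the highest of all birds and lean line 2 the lowest, so that the lean line spanned the whole fat line. The means were 11945 ± 2929 and 16688 ± 7269, with a log2 fold of -0.38 (limma SE 0.28 and adjusted p = 0.811, exact permutation p = 0.317). The dimmer probe set, of a type that can match more than a single transcript, gave -0.44 (limma SE 0.30 and adjusted p = 0.794, exact permutation p = 0.286). Signals of the EGR1 probe sets correlated across birds (r = 0.81, 10 birds), although the ratio of the brighter to the dimmer ranged from 2.72 in lean line 1 to 6.04 in fat line 4. The EGR1 fold was wider in blocked fits, at -0.89 with wash run as a block (limma adjusted p = 0.363) and -0.84 with scan day as a block (limma adjusted p = 0.451). Lean line 2, the lowest bird, and lean line 1 had no weight in these fits. With lean line 2 left out and no block the EGR1 fold was -0.65, and with lean line 4 or lean line 5 left out it was -0.22 or -0.23.

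NR4A3 encodes NOR-1, an orphan nuclear receptor of the NR4A family whose activity is set largely by how much of it is made. It read 206.2, 263.0, 287.4, 510.1 and 360.3 in the fat line and 529.4, 312.8, 378.7, 450.0 and 493.7 in the lean line. Fat line 4, the lowest bird in ATF3, was here the highest bird of its line. The means of 325.4 ± 117.1 and 432.9 ± 87.6 gave a log2 fold of -0.46 (limma SE 0.27 and adjusted p = 0.760, exact permutation p = 0.111).

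MYC, a growth-promoting transcription factor that works with MAX, is induced by mitogens slightly after FOS. It stood at 748.3, 883.6, 491.2, 241.3 and 817.3 in the fat line and 522.2, 592.1, 1964, 1414 and 1424 in the lean line. The lean line fell into 3 birds above every fat line bird and 2 birds, lean line 1 and lean line 2, inside the fat line range. Those were also the birds of the wash run and scan day without a fat line bird, and what part this had was not tested. The means were 636.3 ± 266.2 and 1183 ± 614 with a log2 fold of -0.85 (limma SE 0.40 and adjusted p = 0.677, exact permutation p = 0.119). The MYC fold widened to -1.54 with wash run as a block (limma adjusted p = 0.296), to -1.42 with scan day as a block and to -1.66 on scan day 3 alone. Lean line 1 and lean line 2 had no weight in any of these fits. The MYC fold narrowed to -0.54 without fat line 4.

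DUSP1 encodes a phosphatase that switches MAP kinases off again and so limits the signal that induces the other genes. Its signals were 7312, 8138, 10642, 6889 and 10035 in the fat line and 16372, 7670, 8998, 10738 and 12417 in the lean line. Lean line 1 was highest, and lean line birds 2 and 3 lay among the fat line birds. The log2 fold was -0.36 (8603 ± 1661 against 11239 ± 3382, limma SE 0.20 and adjusted p = 0.744, exact permutation p = 0.159). It was -0.21 without lean line 1.

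**Figure D2:**
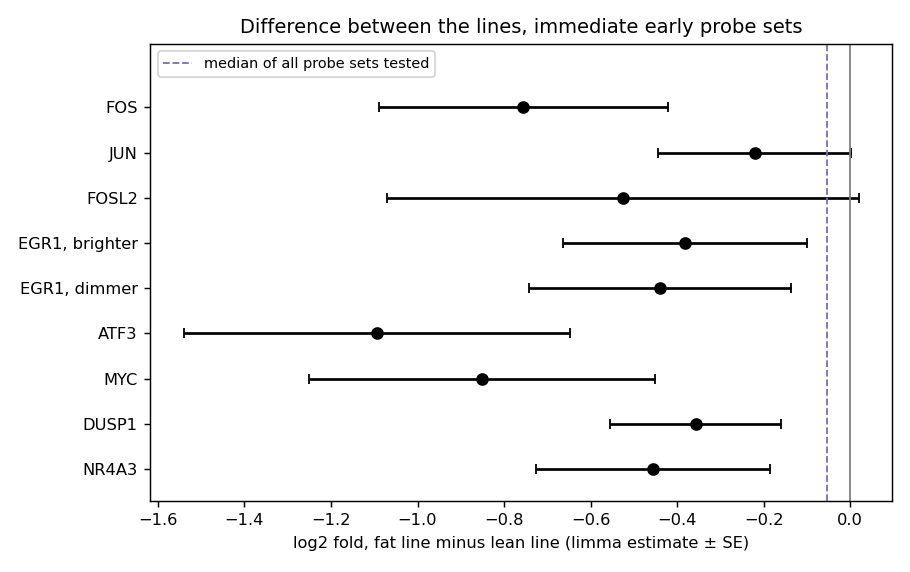
Log2 fold (fat line minus lean line) of each immediate early probe set on the horizontal axis, as points with bars of 1 SE from limma, with 5 birds per line. The dashed line marks the median of all probe sets tested, -0.05, and all 9 points, from -1.09 for ATF3 to -0.22 for JUN, lie to its left. The genes were chosen with earlier results of these data known.

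A value per bird was formed as the mean, over the 8 genes, of the log2 signal minus the mean of that gene over the 10 birds. It was -0.53, -0.04, -0.27, -0.53 and -0.08 in fat line birds 1 to 5 and 0.42, -0.08, 0.34, 0.41 and 0.37 in lean line birds 1 to 5. Of the lean line, 4 birds were above every fat line bird, and lean line 2 was level with fat line birds 2 and 5. The fat line averaged -0.29 ± 0.24 and the lean line 0.29 ± 0.21 (SD, n = 5 each), a difference of -0.58, or 1.495-fold, against a pooled SD between birds of a line of 0.22. Since the genes were chosen with results of these data known, this mean was given no test. Alternatives numbered 30, but 8 of them left out 1 gene each and the replicate block could not move the difference. The brighter probe sets alone were the same calculation as leaving out FOSL2. The difference stayed on the same side in each, at -0.69 to -0.45, including -0.55 after quantile normalization and -0.48 with arrays scaled to the same median. Single birds moved more, since with the same median fat line 4 was at -0.89, fat line 1 at -0.32, fat line 2 at 0.15 and lean line 5, then the highest, at 0.48.

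Individual birds carried different early gene patterns. Lean line 4 was above the mean in all 8 genes, and lean line birds 1, 3 and 5 in 6 each. Lean line 2 was above the mean only in FOS and ATF3, while its JUN and EGR1 were the lowest of all birds. In fat line 1, 7 of 8 genes were below their mean, FOS at -1.08 and FOSL2 at -1.30 furthest, with JUN at 0.22 the exception. Fat line 4 owed its low value to ATF3 at -2.49 and MYC at -1.68, as its FOSL2 (0.72) and NR4A3 (0.49) were above the mean. Fat line birds 2 and 5 were close to the mean of all birds, with 3 and 4 genes above their own mean.

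**Figure D3:**
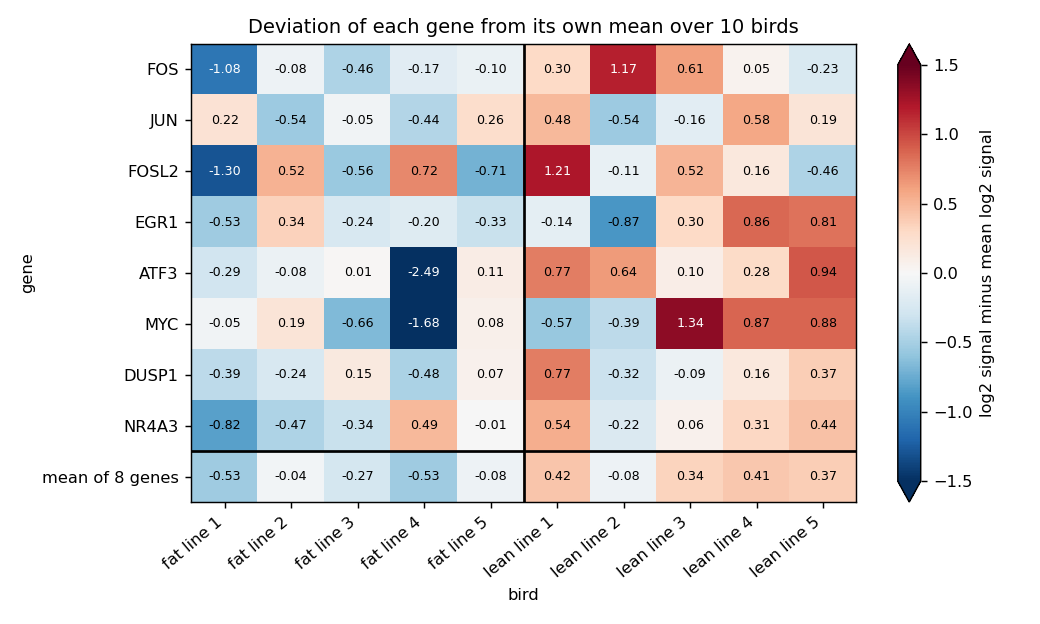
Deviation of each immediate early gene (rows) from its own mean over 10 birds, in log2 units, for each bird (columns), with the mean of the 8 genes in the bottom row. Red is above and blue below the mean of the gene, with colours capped at 1.5. Lean line 4 is above the mean in all 8 genes, and fat line 1 and fat line 4 have the lowest means at -0.53.

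Within the wash runs that held both lines, the mean of the 8 genes was lower in the fat line in each. The lean line birds of these runs, 3 to 5, were all above every fat line bird in this mean. Its direction was therefore the same however the fat line birds were divided. The run left out held lean line 1 and lean line 2, the latter the only lean line bird inside the fat line range. The difference was -0.49 in wash run 1 (fat line 5 against lean line 4), -0.65 in wash run 3 (fat line birds 1 to 3 against lean line 5) and -0.87 in wash run 4 (fat line 4 against lean line 3). Lower in the fat line were 8, 7 and 6 of the 8 genes in these runs. FOS, JUN, EGR1, ATF3, MYC and DUSP1 were lower in all 3 runs, NR4A3 in 2 and FOSL2 in 1. Each run held a single lean line bird and 1 or 3 fat line birds, so these values carry no test.

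The genes did not move as a single block. Over the 10 birds, 21 of the 28 pairs of genes correlated above 0, with a median Pearson r of 0.30 (range -0.32 to 0.69). With the means of the lines removed, 15 pairs were above 0 and 13 below, with a median of 0.11 (range -0.70 to 0.66). All pairs share the same 10 arrays and their scaling, and the correlations are given as a description. JUN and DUSP1 followed each other most closely (r = 0.69, within lines 0.66, and 0.62 to 0.82 with any single bird left out). EGR1 and MYC came next (0.63, within lines 0.56, and 0.56 to 0.74), with ATF3 and DUSP1 alike (0.63, within lines 0.49, and 0.58 to 0.76). The r of 0.61 between ATF3 and MYC rested on fat line 4, without which it was 0.02. FOS, which can join JUN in AP-1, ran against JUN, with r of -0.32 over 10 birds and -0.70 within lines, but the former rested on lean line 2, without which it was -0.01 (-0.44 to -0.01 with any single bird left out).

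**Figure D4:**
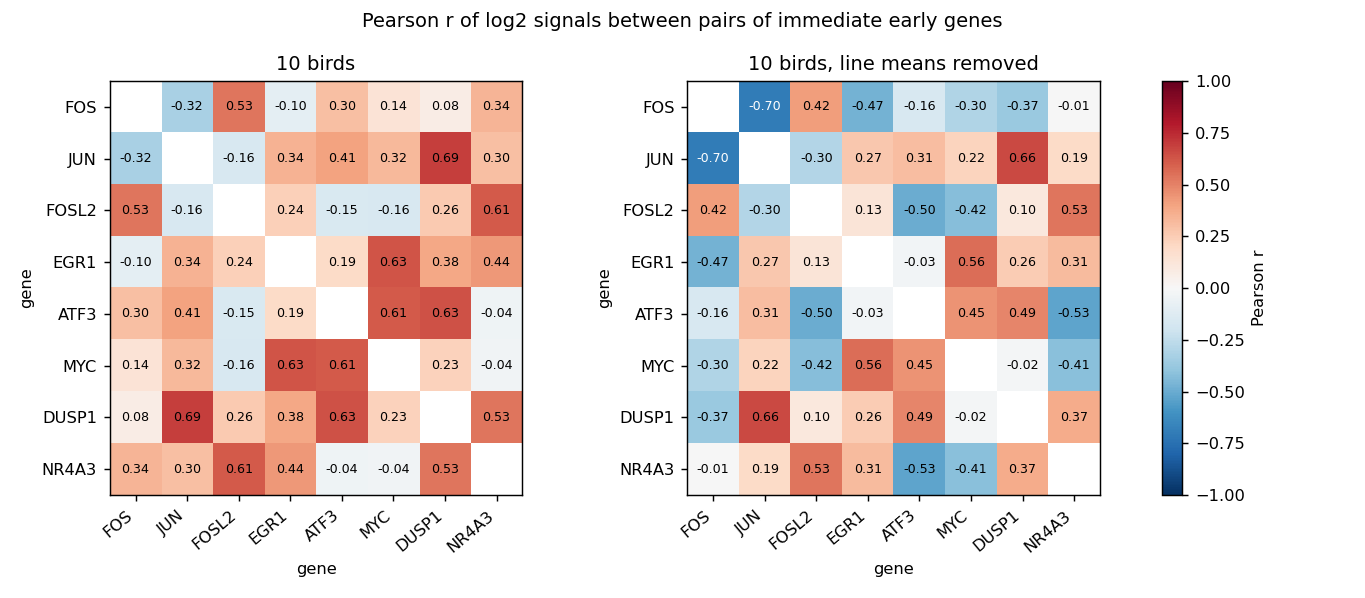
Pearson r of log2 signals between each pair of the 8 immediate early genes over 10 birds (left) and over the same birds after subtracting the mean of each line (right), on a colour scale from -1 to 1. JUN with DUSP1 keeps an r near 0.7 in both panels, and FOS with JUN is at -0.32 and -0.70, the former resting on lean line 2.

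Between birds of the same line, MYC, ATF3 and FOSL2 varied most, with pooled SDs of 0.81, 0.81 and 0.76 in log2 units. The SD of MYC exceeded that of 93.5% of the 19220 brighter probe sets and that of ATF3 93.4%. The SD of ATF3 came mainly from fat line 4, and without that bird it was 0.28, above 36.4% of them. EGR1 (0.56) and FOS (0.48) were above 78.4% and 69.3%, JUN (0.42) and NR4A3 (0.41) near the middle, and DUSP1 lowest at 0.36, although without fat line 4 ATF3 (0.28) and NR4A3 (0.32) were below it. Of the 8 immediate early probe sets in the brighter group, 7 had an SD above its median of 0.38. Without fat line 4, when the median was 0.34, 6 did. These ranks compare each gene with the whole brighter group, not with probe sets of similar signal. JUN, DUSP1 and EGR1 were among the brightest of that group, and FOS and ATF3 among its dimmer members. Whether the SD varied with signal was not tested, so the ranks do not show which genes varied unusually for their signal.

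Among other genes of the early response more were lower than higher in the fat line. Of 68 listed, 50 were measured and 34 (68.0%) were the lower ones, against 55.7% of all probe sets. The share was 52.5% in the brighter group, which held 44 of the 50. The median log2 fold was -0.16, and limma called 0, as on the whole array. At an unadjusted p under 0.05 limma passed 7, of which 6 were lower. Of all probe sets 7.38% passed and 3.99% passed as lower, and in the brighter group 1653 of 19220 passed, 774 of them lower. The list was chosen with earlier results of these data known, so these counts do not test it. CCN2, a matricellular growth factor, had means of 4463 ± 2163 in the fat line and 8739 ± 4423 in the lean line (log2 fold -0.99, limma SE 0.34 and adjusted p = 0.533). TIPARP, an ADP-ribosyltransferase induced by the aryl hydrocarbon receptor, had all 5 lean line birds above all 5 fat line birds, with 633.3 ± 202.3 against 997.3 ± 181.4 (log2 fold -0.72, limma SE 0.25 and adjusted p = 0.554, exact permutation p = 0.0079, the smallest that 5 against 5 birds allow). Lines without overlap were found in 535 of all probe sets (1.39%), and TIPARP was named from the 50 by its low p. ZFP36L2, which promotes decay of AU-rich transcripts, had a log2 fold of -0.47 (SE 0.19). The mean of the 50 genes followed the immediate early mean across birds (r = 0.77 over 10 birds, within lines 0.70).

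Lists of partners of these genes showed no common direction. Some of the AP-1 partners, and serum response factor, were also counted in the early response list above. Of the AP-1 and related leucine zipper partners, 6 of 13 measured were lower in the fat line and the median log2 fold was 0.04. Among 8 other MAP kinase phosphatases, 3 were lower, with a median of 0.14. In this group DUSP8 was lower (-1.14, SE 0.51) and DUSP5, the nuclear ERK phosphatase, higher (0.56, SE 0.26), and neither passed (limma adjusted p = 0.666 and 0.677). In the MAP kinase cascade with serum response factor, 17 of 30 were lower, with a median of -0.05. SRF itself, the factor that binds the promoters of FOS and EGR1 in mammals, was 739.8 ± 203.4 against 1020 ± 159 (log2 fold -0.49, limma SE 0.20 and adjusted p = 0.635, exact permutation p = 0.0397). MYC partners were lower in 6 of 8, with a median of -0.21, and MYCN had a log2 fold of -0.54 (SE 0.39). Limma called 0 genes in each of these 4 lists, as on the whole array.

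Heat shock and chaperone genes, another stress response, leaned the opposite way. In the fat line 13 of 17 were higher and 4 lower, with a median log2 fold of 0.29, and limma called 0, as on the whole array. BAG3, a co-chaperone of HSP70, was 5830 ± 3449 against 2568 ± 1004 (log2 fold 1.006, limma SE 0.41 and adjusted p = 0.625). CHORDC1, a co-chaperone of HSP90, had a log2 fold of 0.83 (SE 0.30) and the mitochondrial chaperonin HSPD1 of 0.47 (SE 0.16). The small heat shock protein HSPB1, abundant in muscle, was the lowest of the 4 lower genes at -0.97 (limma SE 0.25 and adjusted p = 0.341), and alone of the 4 genes named here it followed the immediate early mean over the birds (r = 0.86, 10 birds). The mean of the list had an r of -0.34 with the immediate early mean over 10 birds (-0.60 to -0.19 with any single bird left out) but of 0.07 within lines.

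The other stress lists held no call, and neither did the whole array (0 of 38439 probe sets). Of 15 hypoxia genes 8 were lower (median log2 fold -0.03), and of 8 glucocorticoid response genes 4 were lower (0.02). The glucocorticoid-induced chaperone FKBP5 had a log2 fold of -0.56 (limma SE 0.27 and adjusted p = 0.692). Of 15 inflammatory genes 11 were lower (median -0.26), with serum amyloid A at -1.06 (limma SE 0.57 and adjusted p = 0.736). Limma called 0 in each, and at an unadjusted p under 0.05 it also passed 0 in each, against 7.38% of all probe sets. Some of the glucocorticoid response and inflammatory genes were also counted in the early response list, so these counts are not separate from it.

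Markers of some other cell types moved with the immediate early values across birds. Fewer cells of a type and less RNA per cell cannot be told apart in bulk tissue. Smooth muscle markers had the closest tie, with 6 of 7 lower in the fat line, a median log2 fold of -0.96 and summed signals of 3942 to 6399 in the fat line and 6331 to 38110 in the lean line. Their mean had an r of 0.82 with the immediate early mean over 10 birds (within lines 0.64). The intermediate filament gene DES (226.0 ± 164.4 against 1163 ± 710, log2 fold -2.31, limma SE 0.50 and adjusted p = 0.266) and the smooth muscle actin ACTG2 (-2.27, limma SE 0.50 and adjusted p = 0.266) led the list. Cell cycle genes were lower in 9 of 9 (median -0.61), with sums of 3320 to 5371 in the fat line, all below the 5500 to 12482 of the lean line. Liver markers were lower in 7 of 9 (median -1.59), with sums of 2567 to 22821 against 6281 to 57384, and skeletal muscle markers in 11 of 11 (median -1.45), with sums of 1412 to 36498 against 2577 to 132967. The highest lean line sum came from lean line 3 for cell cycle, lean line 1 for liver and lean line 5 for skeletal muscle. The cell cycle sums of the other lean line birds were 5500 to 5915. Skeletal muscle sums were also high in lean line 3 (61914) and in fat line 2 (36498), which lay above lean line birds 1, 2 and 4. The lowest signal of any marker in any bird was 22.1 for smooth muscle, 122.9 for cell cycle, 6.4 for liver and 8.9 for skeletal muscle. With the immediate early mean, the r was 0.47 for cell cycle (within lines -0.08), 0.59 for liver (within lines 0.30) and 0.55 for skeletal muscle (within lines 0.42). The part of these markers in the immediate early values was not tested.

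Blood and immune markers differed by type. Granulocyte and red cell markers were lower in 5 of 6 measured of 16 listed (median log2 fold -0.95), with sums of 7160 to 28016 against 20898 to 33723 and the haemoglobin gene HBA1 at -0.97 (limma SE 0.31 and adjusted p = 0.494). Macrophage markers were lower in 8 of 9 (median -0.26), with sums of 56037 to 64003 against 52446 to 83452. T cell markers were lower in 7 of 9 (median -0.23), with sums of 2185 to 3865 against 2501 to 4529. Mesothelium markers were lower in 4 of 4 measured of 8 listed (median -0.26), with sums of 792.9 to 2504 against 976.7 to 3470, and intestine markers in 8 of 10 (median -0.38), with sums of 2853 to 3442 against 3189 to 6409. The highest macrophage sum was that of lean line 3, with 52446 to 60629 in the other lean line birds. The highest intestine sum was that of lean line 1, with 3189 to 4300 in the others. Endothelium markers were lower in 3 of 10 (median 0.19), and fibroblast and stroma markers in 6 of 8 with a median near that of all probe sets (-0.06). Over 10 birds the r with the immediate early mean was 0.58 for granulocyte and red cell (within lines 0.14), 0.26 for macrophage (within lines 0.00), 0.10 for T cell (within lines -0.28) and -0.08 for endothelium markers. It was 0.52 for mesothelium (within lines 0.41), 0.52 for intestine (within lines 0.04) and 0.30 for fibroblast and stroma markers (within lines 0.40). Their part in the immediate early values was not tested.

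Most fat cell markers ran against the immediate early genes. In the fat line 7 of 9 were higher (median log2 fold 0.31), with sums of 156374 to 189760 against 141433 to 172542, and their mean had an r of -0.74 with the immediate early mean over 10 birds (within lines -0.48). The fat cell regulator PPARG was 5149 ± 1106 against 3389 ± 785 (log2 fold 0.61, limma SE 0.19 and adjusted p = 0.458), and lipoprotein lipase, LPL, had a log2 fold of 0.31 (SE 0.14). The adipokine ADIPOQ went the other way at -0.58 (limma SE 0.20 and adjusted p = 0.536). FABP4 and PLIN1, the markers that bore out the tissue, hardly differed, with log2 folds of -0.03 (SE 0.14) and 0.07 (SE 0.15). Their r with the immediate early mean over 10 birds was 0.22 and -0.41. A change in the share of fat cells cannot be told apart from a change per cell here, and its part in the immediate early values was not tested.

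**Figure D5:**
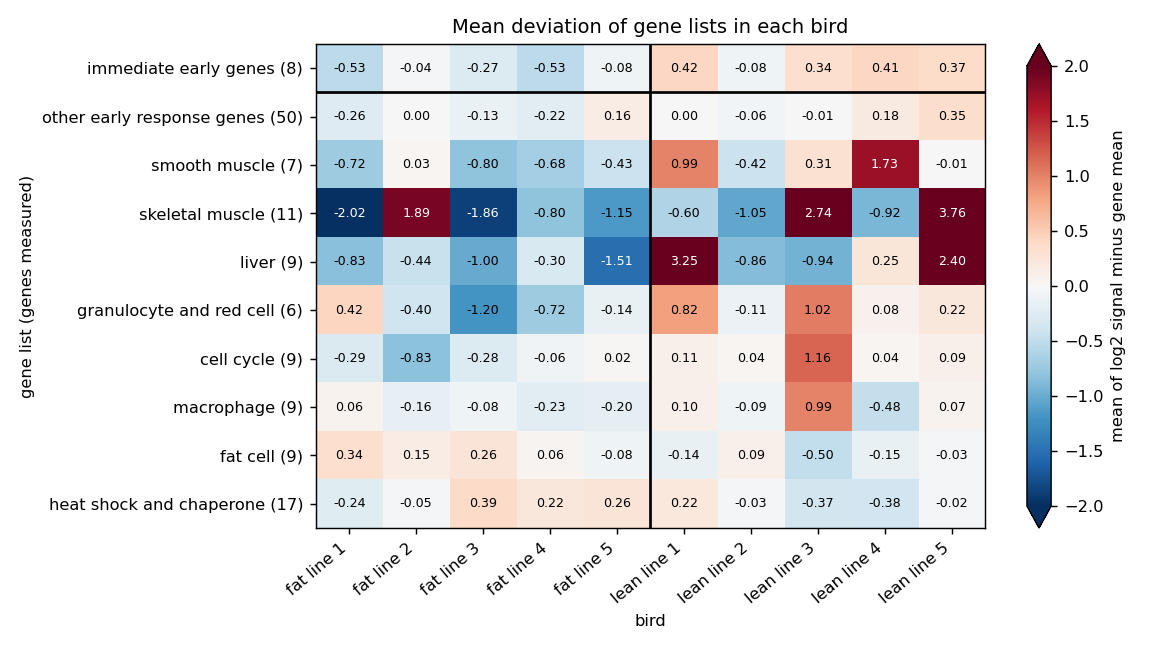
Mean deviation, in log2 units from the mean of each gene over 10 birds, of the immediate early genes (top row) and of 9 other gene lists (rows) in each bird (columns), with the number of genes measured in brackets and colours capped at 2. Smooth muscle is highest in lean line birds 1 and 4 (0.99 and 1.73), which also have the 2 highest immediate early means on the deposited values, whereas lean line 5 ranks above lean line 4 after either scaling, and liver in lean line birds 1 and 5.

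The genes most like the immediate early mean across birds were sought among 15148 probe sets with 1 symbol, outside the 8 genes, of the brighter group. They were SYNM (Pearson r = 0.96, 10 birds), DES (0.94), TMEM184B (0.94), MGP (0.93), LPAR6 (0.93), TRABD2B (0.93), LRCH2 (0.92), GLIPR2 (0.91), RBM24 (0.91) and CRISPLD2 (0.90). SYNM encodes synemin and DES desmin, which are intermediate filament proteins of muscle, and MGP encodes the matrix Gla protein that keeps vessel walls from calcifying. SYNM read 650.1, 1078, 765.1, 721.4 and 868.9 in the fat line and 1869, 914.1, 1278, 1776 and 1477 in the lean line, with lean line 2 again the bird inside the fat line range. The genes most like FOS alone were different ones, KATNBL1 (0.94), ITPR1 (0.91), TTLL4 (0.90), LRCH3 (0.89) and SLC12A4 (0.88). Picked as the highest of so many over only 10 birds, these values describe likeness and carry no test.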

How the data were processed

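Chicken Genome Arrays measured abdominal fat RNA of 10 birds, 1 array each, and signal intensity per probe set was used as deposited. The labels name MAS5 and the methods Microarray Suite with scaling to total fluorescence. The labels and the methods name different RNA extraction kits. Control probe sets (96) were left out and log2 of the deposited intensity of 38439 probe sets was fitted with limma 3.58.1 (lmFit, eBayes with trend) in R 4.3.3, with line as the only term, no floor and Benjamini-Hochberg adjustment at 0.05. Python 3.11.15 enumerated the 252 labellings. Probe sets were named through the platform annotation, in which 27168 had 1 symbol, 177 several and 11094 none, and 26853 of the 27168 matched RefSeq gene IDs, none with another symbol. A gene with several probe sets was represented by the brightest. Named were all members, up to 4 genes per list by limma p, the tissue checks, and the 10 and 5 most alike. A result that this rule would name is not reported here. The members and lists were chosen with earlier results of these data known. SAM with delta 0.8, as in the methods, used 100 permutations, all 10 birds and no filter on detection calls, whereas the methods left a bird out and kept transcripts called present. Both tests were tested on simulated data. Separate birds are the replicates, and 5 per line limit the precision. Scan days and scanners were read from the scan headers. Wash runs were not recorded there and were inferred from gaps of more than 1 hour between the hybridization times.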

Additional observations from a re-analysis of the deposited data

Results flagged for a closer look

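Within each line, the log2 signals of each of the 9 probe sets and the mean of the 8 genes were checked for a bird far from its line, by the gap to the nearest bird divided by the range of the line. For 5 birds the ratio is unusual above 0.71. Of 20 groups checked, 2 passed, and chance marks about 1 in 20. ATF3 of fat line 4 had a ratio of 0.844, with a signal of 41.7 against 191.2 to 253.1 in the other fat line birds. That bird also had the lowest correlation with the other arrays. The immediate early mean of lean line 2 had a ratio of 0.83, at -0.08 against 0.34 to 0.42 in the other lean line birds.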

How the results depend on the processing

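Over the array limma called 0 probe sets, and 0 to 2 with a single bird left out: 1 without fat line 2, 2 without fat line 4 and 2 without lean line 5. It called 1 with both birds numbered 4 left out and 2 with quantile normalization and fat line 4 left out, settings chosen after seeing the data. SAM called 0 with its 100 drawn permutations, a count that another draw could change. The immediate early probe sets called were 0 under each setting, and all those tested were lower in the fat line under each. Those with an unadjusted p under 0.05 ranged from 0, with arrays scaled to the same median or with quantile normalization and fat line 4 left out, to 5 of 9 without lean line 2. Over the whole array the same cut passed 2535, 3424 and 2505 of 38439 probe sets under these settings, in that order. Of all probe sets with an unadjusted p under 0.05, 54.1% had the lower mean in the fat line, a share of 43.5% under quantile normalization, 38.0% with arrays scaled to the same median and 63.7% without fat line 4. Leaving out any 1 gene kept the difference of the immediate early mean between -0.63 and -0.51.

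With the replicate number of the labels as a block, limma called 0 probe sets and 0 of the immediate early probe sets, with 1 of the 9 and 2591 of all at an unadjusted p under 0.05. With the mean of each line subtracted from the log2 signals, same-numbered birds correlated at -0.14 to 0.06. Birds of different numbers were not compared, so whether the numbers pair the birds was not tested.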
